A study of Mus musculus with 17 samples.

Results

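The genes described here encode the subunits of the receptors for glutamate and GABA, the main excitatory and inhibitory transmitters of the brain. They were chosen by symbol: all genes whose name begins with Gabr or Gabbr, or with Gria, Grik, Grin or Grm followed by a digit. This gave 45 of the 23284 genes of the deposited count table. They were measured in single cells of the mouse hypothalamus by Drop-seq, a droplet method in which a barcode marks the cell and a unique molecular identifier (UMI) marks each captured transcript. The food-deprived group comprised 3 mice that had been without food for 24 hours, and the normal group comprised 5 mice fed normally. All 8 were B6D2F1 hybrids, from C57BL6 mothers and DBA2 fathers, and no source used here gives their age or sex. The replicate is the mouse, and its 1 to 4 libraries were summed.

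Ionotropic glutamate receptors are cation channels. AMPA receptors (Gria genes) carry most fast excitation, NMDA receptors (Grin genes) pass calcium when the membrane is depolarised, and kainate receptors (Grik genes) modulate release and excitability. The GRIA2 subunit makes AMPA receptors poorly permeable to calcium. Metabotropic glutamate receptors (Grm genes) and GABA-B receptors (Gabbr genes) signal through G proteins, whereas GABA-A receptors are chloride channels built mostly from alpha, beta and gamma subunits. Subunits of the Gabrr genes form GABA-A channels that are best known from the retina. Glia carry many of these receptors too, and oligodendrocyte precursors receive synapses from neurons.

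The 17 libraries gave 14276 cells that were joined to a mouse and carry a cluster label deposited by the authors, with 46904254 UMIs. Of these cells, 2309 are labelled zothers, a remainder without a cluster name. Mice differed widely in depth, with 3698233 to 12570644 UMIs in food-deprived mice and 290861 to 8958225 UMIs in normal mice. The labels place the mice in 5 batches, and only batches 1 and 2 hold both groups. In 9 libraries, which come from food-deprived replicates 1 and 2 and normal replicates 3 and 4, Gapdh lay at 4.36 to 8.53 CPM, against 151 to 811 CPM in the other 8. In all libraries together 120 cell barcodes occurred in at least 2 libraries, and 161 annotated cells whose library was ambiguous for that reason were left out. Clusters are called by their deposited names, and clusters that share a stem are merged into a class. All neurons stands for the GABA, Glu and Hista cells together. It leaves out zothers, where neuronal markers stood at a summed 10222 CPM, against 10209 CPM in all neurons. MO held markers of myelinating oligodendrocytes at a summed 109141 CPM, IMO held those of newly formed oligodendrocytes at 12450 CPM, OPC held precursor markers at 6993 CPM, Astro held astrocyte markers at 20577 CPM and Tany held tanycyte markers at 2693 CPM. Epith carried endothelial markers at 8745 CPM and mural cell markers at 6268 CPM, and Micro carried microglial markers at 11050 CPM.

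Receptor subunit transcripts were most abundant in neurons, oligodendrocyte precursors and astrocytes. Unless stated otherwise, a level is in CPM, UMI counts scaled to the class total of a mouse, as the mean ± SD over mice with at least 5 of its cells. Each transcript is counted near its 3′ end, so a CPM does not scale with transcript length, although capture may differ between genes. The 45 genes together made up 4114 ± 195 CPM in Glu neurons, 3091 ± 407 CPM in GABA neurons, 2984 ± 352 CPM in OPC, 2359 ± 368 CPM in Astro and 2037 ± 415 CPM in IMO (n = 8 mice each). MO held 558 ± 93.9 CPM, Tany 678 ± 161 CPM, Ependy 328 ± 110 CPM and Epith 207 ± 93.8 CPM (n = 8 each). The classes were defined by the authors from the expression of these same cells, so differences between classes are given as a description, without a test.

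**Figure D1:**
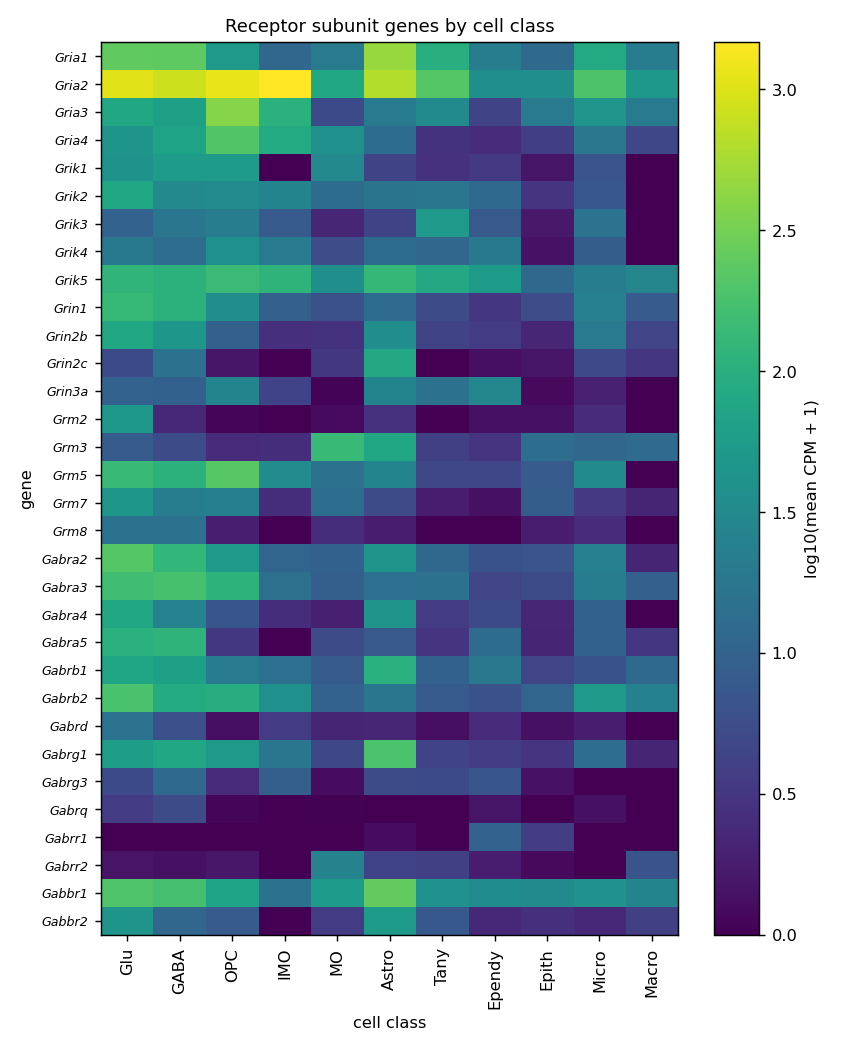
Mean level of receptor subunit genes (rows, those reported here with at least 50 UMIs, plus Gabrr1) in 11 cell classes (columns). Colour is log10 of the mean CPM over mice plus 1. Gria2 is bright in Glu, GABA, OPC, IMO and Astro, and Gabrr2 is visible above the other classes in MO.

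Gria2 was the leading member, with 30735 UMIs. Of the 45, Grm6 had no UMI and 9 more had fewer than 50: Gabra6 and Gabrr3 had 1 each, Gabrp 2, Grin2d 7, Grm4 13, Grin2a 19, Gabre 24 and Gabrr1 27. Grin3b made up the rest of that group. The AMPA genes together had 44914 UMIs, the GABA-A genes other than Gabrr 34907, the metabotropic glutamate receptor genes 9028, the kainate genes 7827, the GABA-B genes 6871, the NMDA genes 5644 and the Gabrr genes 365. Gabra4 and Gabrb1 lie on opposite strands and overlap in GENCODE M21, as do Gabra5 and Gm9962, and Grin1 overlaps the antisense gene Grin1os. No source used here says whether the counting used strand, so reads of such pairs may not be separated.

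In neurons the leading AMPA subunit was the same in every cluster examined, whereas the leading GABA-A alpha subunit differed between clusters. Gria2 averaged 1068 ± 122 CPM in Glu and 853 ± 175 CPM in GABA neurons, and Gria1 248 ± 88.0 CPM in Glu and 238 ± 45.8 CPM in GABA neurons (n = 8 mice each). Of the 34 neuronal clusters, 29 had at least 2 mice with 5 cells. Gria2 was the highest of the 4 AMPA subunits in all 29, and its share of AMPA UMIs ran from 56.5% in Glu14 to 88.7% in Glu5. Among the alpha subunits, Gabra3 led in 10 clusters, Gabra2 in 8 and Gabra5 in 1, GABA12. Gabra3 led in 8 GABA clusters and 2 Glu clusters. Of the gamma subunits, Gabrg1 led in 3 clusters, which were GABA15, GABA17 and Glu11. Of the beta subunits, Gabrb2 led in 12 clusters and Gabrb1 in 2. The 4 NR2 genes encode the NMDA subunits that bind glutamate. Of these, Grin2b led in 28 clusters, and Grin2c led in GABA8 at 41.3 ± 20.1 CPM (n = 7 mice).

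**Figure D2:**
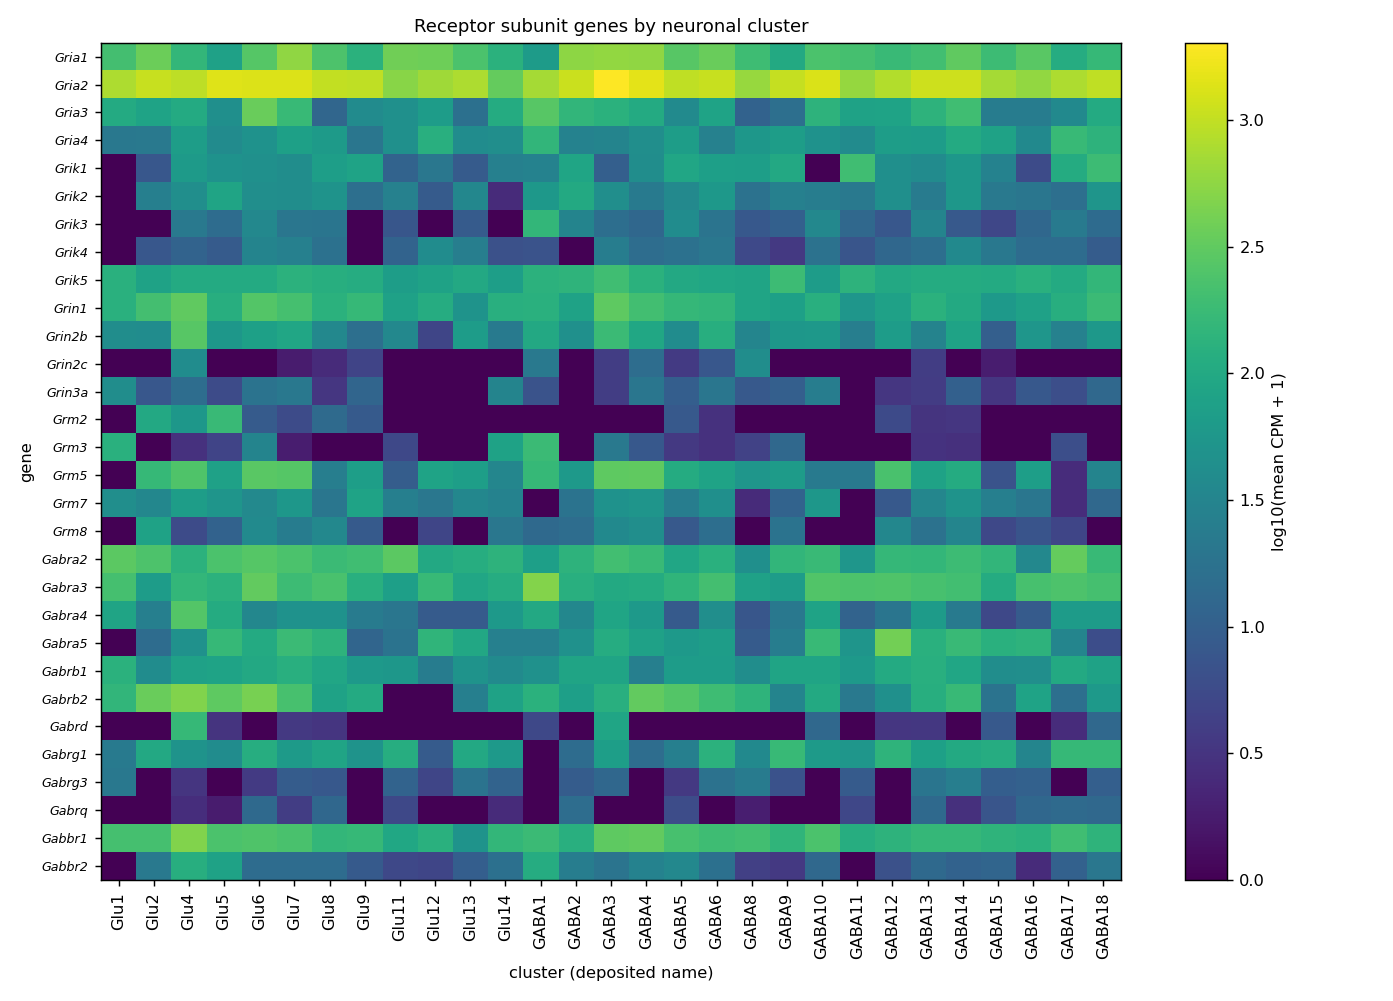
Mean level of receptor subunit genes reported here (rows) in the 29 neuronal clusters with at least 2 mice (columns, Glu clusters left and GABA clusters right). Colour is log10 of the mean CPM plus 1. Gria2 is the brightest AMPA row throughout, and Gabrd is highest in Glu4 and GABA3.

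Some subunits were concentrated in few clusters. Gabra4, an alpha subunit that often joins delta in receptors outside synapses, was highest in Glu4 at 265 ± 47.6 CPM (n = 4 mice), and Glu5 followed at 107 ± 57.6 CPM (n = 6). Gabrd, the delta subunit itself, reached 162 ± 69.7 CPM in Glu4 (n = 4) and 85.9 ± 12.01 CPM in GABA3 (n = 2), and stood at 0 in 17 of the 29 clusters. Gabra5, which forms mainly extrasynaptic receptors, was highest in GABA12 at 398 ± 176 CPM (n = 6), and its lowest mouse had 82.5 CPM there. Grik3 was highest in GABA1 at 154 ± 235 CPM (n = 3), a level that rests on 11 UMIs and ranged between 0 and 425 CPM over the mice. Gria1 and Gria2 were not of this kind, with 0 of the 29 clusters at 0 and medians over clusters of 230 and 975 CPM. Their highest means were in GABA3, at 581 ± 139 CPM and 2018 ± 226 CPM (n = 2). Glu7 was close for Gria1, at 577 CPM. Grm2, an autoreceptor that limits glutamate release, was found in Glu5 at 172 ± 60.6 CPM (n = 6) and stood at 0 in 17 clusters.

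Between the broad neuronal classes, 7 of the 25 members with at least 20 CPM in either class were ordered the same way in all 8 mice. Among these, Gabra2, Gabrb2, Grm2 and Grm7 were higher in Glu than in GABA neurons in every mouse, and Gria4 was lower. Gabra2 averaged 216 ± 39.8 CPM in Glu and 123 ± 55.0 CPM in GABA neurons. Gabrb2 averaged 179 ± 50.7 CPM in Glu and 88.0 ± 41.5 CPM in GABA neurons. Grm2 averaged 47.3 ± 21.2 CPM in Glu and 1.27 ± 1.40 CPM in GABA neurons. Gria4 averaged 42.1 CPM in Glu and 68.5 CPM in GABA neurons (n = 8 mice for each of these).

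GABA-A subunit genes lie in clusters along the chromosomes. In the RefSeq annotation, chromosome 5 holds Gabrg1, Gabra2, Gabra4 and Gabrb1. Over the 29 neuronal clusters, log2(CPM + 1) of Gabra2 and Gabra4 had a Pearson r of 0.47, and Gabra2 and Gabrb1 likewise gave 0.47. The overlapping genes Gabra4 and Gabrb1 gave 0.43. Gabrg1 gave 0.40 with Gabra2, 0.39 with Gabrb1 and -0.10 with Gabra4, so 5 of the 6 pairs were positive. Clusters share libraries and differ in depth, so these values are a description of the 29 clusters.

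Along the oligodendrocyte lineage, Gria2 was high in precursors and immature cells and low in myelinating cells. Gria2 lay at 718, 1191 and 1356 CPM (lowest, median and highest of 8 mice) in OPC, at 1170, 1316 and 2155 CPM in IMO, and at 47.9, 64.6 and 162 CPM in MO. Every mouse had less in MO than in OPC or IMO, and 7 of 8 had more in IMO than in OPC. Gria2 transcripts were found in 84.1% of OPC, 91.3% of IMO and 12.1% of MO cells, at medians of 2020, 3716 and 2195 UMIs per cell. In cells thinned to 1000 UMIs the shares were 66.1% of OPC, 67.6% of IMO and 5.94% of MO cells. By the thinned shares OPC and IMO differed little.

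The other precursor genes were already lower in IMO, apart from Grik5, at 145 ± 65.3 CPM in OPC, 114 ± 66.4 CPM in IMO and 37.0 ± 14.0 CPM in MO. Gria3 averaged 390 ± 58.7 CPM in OPC, 105 ± 64.5 CPM in IMO and 4.09 ± 3.00 CPM in MO (n = 8 mice each), and it was higher in OPC than in all neurons in every mouse. Gria4 averaged 200 ± 50.04 CPM in OPC, 84.3 ± 24.2 CPM in IMO and 37.9 ± 16.7 CPM in MO. Grm5, a metabotropic receptor coupled to calcium release, averaged 221 ± 49.8 CPM in OPC, 33.04 ± 27.2 CPM in IMO and 14.7 ± 10.7 CPM in MO. Gabra3 averaged 112 ± 30.1 CPM in OPC, 13.9 ± 19.3 CPM in IMO and 8.20 ± 7.18 CPM in MO. All 4 were higher in OPC than in IMO in 8 of 8 mice.

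Grik1 averaged 55.8 ± 26.8 CPM in OPC and 30.1 ± 17.4 CPM in MO. No UMI of it was found in the 149 IMO cells, which allows up to 4.89 CPM over the class, or up to 2.01% of cells with a captured UMI (3 counts, counting error only). This is no limit on the share of IMO cells that express Grik1. In MO, 7 neuronal marker genes together stood at 479 CPM, 4.70% of their level in all neurons. Grik1 stood at 64.9% of its neuronal level in MO. Of 24 members with at least 20 CPM in all neurons, 6 stood above 5 times the marker share in MO, and these were Gabbr1, Gria4, Grik1, Grik2, Grik5 and Grm7. The marker share was higher in OPC, at 24.0%, and in IMO, at 17.8%. In OPC 6 members stood above 5 times it, which were Gria2, Gria3, Gria4, Grik1, Grik5 and Grm5. Gabra3 was not among them, at 67.4% of its neuronal level in OPC. The part of neuronal RNA in these levels was not tested.

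**Figure D3:**
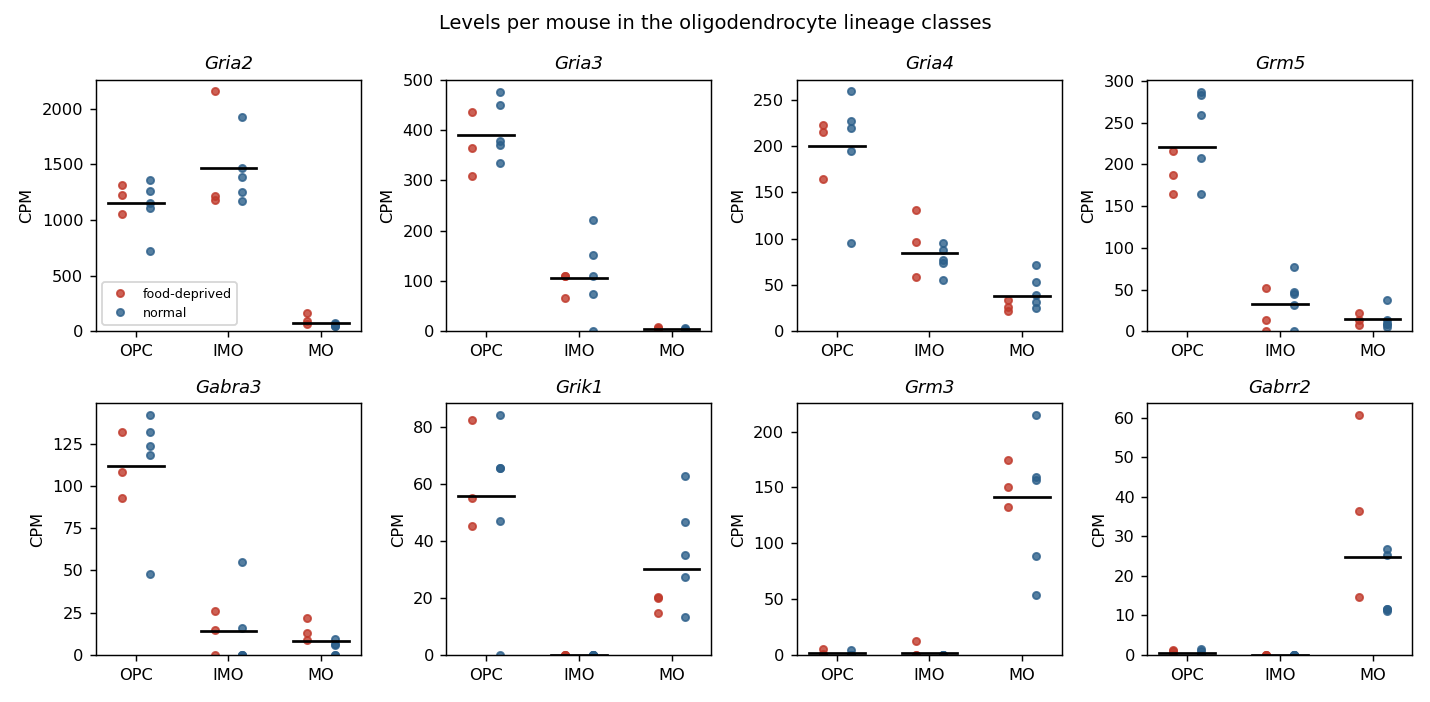
Level in CPM (vertical axes, linear, from 0) of 8 receptor subunit genes in OPC, IMO and MO cells. Each point is a mouse, food-deprived left in red and normal right in blue, and bars are means over the 8 mice. Gria2 is high in OPC and IMO, Grik1 is at 0 in IMO, and Grm3 and Gabrr2 are high in MO alone among these 3 classes.

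Myelinating oligodendrocytes carried Grm3 and Gabrr2. Grm3, a metabotropic receptor that lowers cyclic AMP, was the leading member in MO at 53.4, 153 and 215 CPM (lowest, median and highest of 8 mice), against medians of 0 CPM in both OPC and IMO. It was found in 30.4% of MO cells and 0.410% of OPC cells, at medians of 2195 and 2020 UMIs per cell. Thinned to 1000 UMIs, the shares were 15.3% of MO and 0.0629% of OPC cells. Astro was the next glial class, at 76.8 ± 42.9 CPM, and MO was higher than Astro in 7 of 8 mice. Of single clusters, GABA1 had a higher mean than MO, 178 ± 215 CPM over 3 mice, from 13 UMIs.

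Gabrr2 was highest in MO, at 24.8 ± 17.1 CPM (n = 8 mice), which was 4.44 times the next cluster, Macro, at 5.58 CPM from 3 UMIs. MO held 296 of its 337 UMIs. The lowest mouse had 11.2 CPM in MO, the median 19.98 CPM and the highest 60.6 CPM, and MO was above OPC, IMO, Astro and all neurons in all 8 mice. A UMI was found in 242 of 3501 MO cells (6.91%, or 3.29% when thinned). The shares were 0.702% of Astro, 0.485% of Ependy, 0.234% of OPC and 0.305% of all neuronal cells. The medians were 2195 UMIs per MO cell, 1300 per Astro cell, 2364 per Ependy cell, 2020 per OPC cell and 3930 per neuron. IMO and Micro had no UMI, which allows up to 4.89 CPM and 2.24 CPM (3 counts over the class). Over 45 clusters the members most like Gabrr2 in log2(CPM + 1) were Grm3 at Pearson r = 0.39, Grin2c at 0.33 and Gabrp at 0.22, the last with 2 UMIs in all.

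Gabrr2 lies on chromosome 4 beside Gabrr1, which had no UMI in MO (up to 0.329 CPM). Gabrr1 had 27 UMIs in all and was highest in Ependy at 9.02 ± 11.5 CPM, from 12 UMIs. The cluster Epith2 followed closely at 7.85 CPM, so these few UMIs do not single out Ependy. The 250 bases before the RefSeq start of each gene are shown because Gabrr2 was highest in MO, where its neighbour Gabrr1 had no UMI. They are on the plus strand of GRCm38.p6, at chr4:33062862-33063111 for Gabrr2 and chr4:33132306-33132555 for Gabrr1, upstream of the annotated transcripts. Capitals mark a match to any of the 5 motifs searched on both strands.
Gabrr2: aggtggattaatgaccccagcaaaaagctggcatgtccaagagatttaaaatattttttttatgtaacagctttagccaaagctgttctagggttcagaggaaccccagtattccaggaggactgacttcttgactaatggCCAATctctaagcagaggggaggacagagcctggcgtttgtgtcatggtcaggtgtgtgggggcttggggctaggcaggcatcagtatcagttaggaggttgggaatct
Gabrr1: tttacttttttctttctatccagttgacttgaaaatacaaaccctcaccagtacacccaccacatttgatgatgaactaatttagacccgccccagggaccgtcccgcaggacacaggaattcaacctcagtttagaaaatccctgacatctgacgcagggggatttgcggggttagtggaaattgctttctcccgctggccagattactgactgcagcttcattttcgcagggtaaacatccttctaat
The motifs were CCAAT, the TATA box TATAAA, the SOX core ACAAAG, the E-box CAGCTG and the glucocorticoid receptor element, which do not overlap in these windows. Gabrr2 held 1 CCAAT motif, which 33.8% of 32851 RefSeq promoter windows of this length also hold, and Gabrr1 held none of the 5. Of all windows, 12.4% held the TATA box, 16.5% the SOX core, 13.001% the E-box and 0.387% the glucocorticoid receptor element. The start sites used in these cells were not measured.

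Astrocytes combined AMPA subunits with GABA receptor subunits. Gria2 averaged 626 ± 181 CPM and Gria1 473 ± 267 CPM in Astro, and Gria1 was higher than in all neurons in 7 of 8 mice. Gabrg1 averaged 183 ± 75.8 CPM in Astro and 69.1 CPM in all neurons, and was higher in Astro in all 8 mice. Gabbr1, the GABA-B subunit that binds GABA, averaged 254 ± 113 CPM in Astro, and Gabbr2, its signalling partner, averaged 52.8 ± 29.9 CPM. Gabrb1 averaged 102 ± 47.6 CPM and Grin2c 80.0 ± 47.0 CPM (n = 8 for each of these). Astro cells also held myelin markers at 6780 CPM and neuronal markers at 1109 CPM, which is 10.9% of their level in all neurons. Of 24 members with at least 20 CPM in all neurons, 9 stood above 5 times that share in Astro. The part of free RNA in the Astro levels was not tested.

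Tanycytes, the ependymal-like cells lining the floor of the hypothalamic ventricle, had Gria2 at 212 ± 73.8 CPM, Gria1 at 98.0 ± 49.7 CPM, Grik5 at 80.1 ± 40.3 CPM and Grik3 at 51.0 ± 16.4 CPM (n = 8 each). Grik3 was higher there than in all neurons, which averaged 13.7 CPM. Ependy cells had little of most members. Grik5 had their highest mean at 51.6 ± 51.7 CPM, followed by Gria2 at 37.2 ± 24.5 CPM and Gabbr1 at 33.4 ± 17.6 CPM, and Grin3a averaged 27.3 ± 24.9 CPM. Normal replicate 1 had Grik5 at 175 CPM, and by the median over mice Gria2 was higher, at 41.7 CPM against 35.9 CPM. The SCO cluster, with 32 cells of normal replicate 3, had Gria1 at 304 CPM and Gria2 at 9.20 CPM, so that Gria2 made up 2.56% of 39 AMPA UMIs. That share was 48.7% of 39 AMPA UMIs in Macro and 53.8% of 91 in Ependy, and at least 54.0% in the classes with at least 100 AMPA UMIs. In Epith, Gria2 averaged 36.4 ± 28.3 CPM and Gabbr1 30.9 ± 27.1 CPM (n = 8). In Micro, Gria2 averaged 193 ± 82.7 CPM, Gria1 86.0 ± 130 CPM and Gabrb2 51.4 ± 31.0 CPM (n = 6). Food-deprived replicate 3, with 16 Micro cells, had Gria1 at 347 CPM. The medians over mice were 37.0 CPM for Gria1 and 45.1 CPM for Gabrb2. Macro, at 48.3 ± 41.9 CPM (n = 5), and POPC, at 498 ± 204 CPM (n = 3), were also led by Gria2. Epith and Micro held neuronal markers at 6.70% and 12.8% of the level in all neurons. The median of 24 members stood at 4.71% of the neuronal level in Epith and 18.97% in Micro, and the part of free RNA in these levels was not tested.

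Feeding state was compared class by class on UMI counts summed per mouse, with edgeR's quasi-likelihood test. No member passed an adjusted p of 0.05 in any of 10 classes that share no cells, nor in all neurons or all cells together, and no other gene did (0% called). In all neurons 1 of 34 members (background 2.12% of all genes) and in all cells 1 of 35 (0.827%) had an unadjusted p under 0.05. Over the 10 classes, 128 member and class pairs could be tested, covering 34 of the 45 members. The log2 fold change, food-deprived over normal, was above 0 in 61 pairs and below 0 in 67, and exceeded 1 in size in 5. At an unadjusted p under 0.05 there were 5 pairs with edgeR and 5 with DESeq2, which adjusted to none. These were 1 of 30 members tested in Glu (background 3.58% of all genes), 2 of 14 in MO (3.95%), 1 of 7 in Tany (3.07%) and 1 of 8 in Micro (2.58%) with edgeR. None of 29 members in GABA (1.82%), 22 in OPC (3.14%), 11 in Astro (3.14%), 4 in IMO (4.64%), 2 in Epith (3.52%) or 1 in Ependy (4.44%) reached it. The median log2 fold change of the members was 0.05 in Glu, where that of all genes was 0.00. In OPC it was -0.08, where that of all genes was 0.00.

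**Figure D4:**
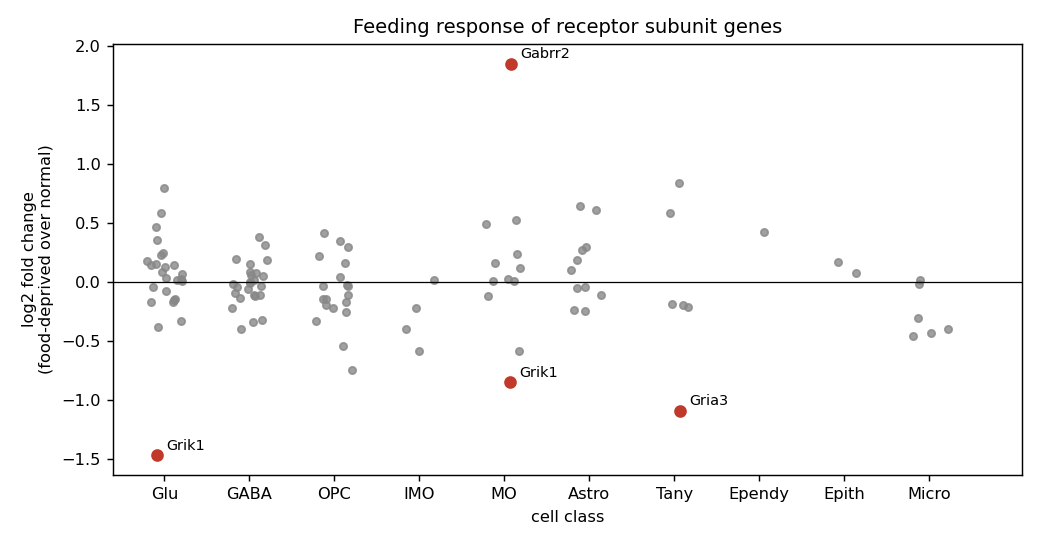
Log2 fold change, food-deprived over normal, of the receptor subunit genes tested and reported here (points) in 10 cell classes. Red points with a name had an unadjusted p under 0.05, and none passed after adjustment. The points spread on both sides of 0, with Gabrr2 in MO the highest and Grik1 in Glu the lowest.

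Gabrr2 in MO had the smallest p of any member. Levels in this and the following comparisons are CPM scaled to TMM-adjusted totals, which align most genes between mice. Food-deprived replicates 1 to 3 had 36.2, 62.4 and 15.05 CPM, and normal replicates 1 to 5 had 26.4, 24.7, 11.7, 12.1 and 12.2 CPM. Food-deprived replicates 1 and 2 were above all normal mice, but replicate 3 was not, so the groups overlapped. The counts behind these values were 104, 145 and 2 UMIs in the food-deprived mice, against 2, 2, 21, 14 and 6 UMIs in the normal mice. With equal weight per mouse, the means were 37.9 ± 23.7 CPM in food-deprived and 17.4 ± 7.49 CPM in normal mice. The fit gives more weight to mice with more UMIs, and its estimate is larger than these means imply. Its log2 fold change was 1.85 ± 0.33 (SE), with an adjusted p of 0.286 by edgeR. An exact two-sided permutation test of log2(CPM + 1) over mice gave p = 0.143, where 0.0357 is the smallest possible.

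Within batch 1 the food-deprived mouse was 1.56 higher than the normal mouse in log2(CPM + 1), and within batch 2 it was 2.28 higher. With batch as a block, Gabrr2 passed in MO at 1.97 ± 0.30 and an adjusted p of 0.0129 (edgeR, 0.201% of genes called), and in all cells at 2.08 ± 0.35 and 0.0392 (0.141% called). Under DESeq2 with the same block, an alternative chosen after seeing the data, it did not pass in MO (2.00 ± 0.51, adjusted p = 0.149) or in all cells (2.11 ± 0.54, adjusted p = 0.0778). It did not pass either in MO of batches 1 and 2 alone, also chosen after seeing the data (2.04 ± 0.33, adjusted p = 0.0867, edgeR). Food-deprived replicate 3, whose value made the groups overlap, is alone in batch 4 and so adds nothing to the difference under the block, and neither do normal replicates 1, 2 and 5, whose batches hold normal mice alone. Without the filter on low counts the adjusted p was 4.25e-06 (0.137% called), and in the Gapdh-poor libraries alone, with the block, 0.00544 (0.399% called). Over all alternatives the adjusted p ran between 4.25e-06 and 1.00, and without food-deprived replicate 2 the log2 fold change was 1.35. By cell, 7.82%, 13.6% and 3.28% of MO cells had a UMI in food-deprived replicates 1 to 3. The shares were 5.41%, 5.56%, 2.91%, 2.78% and 0.909% in normal replicates 1 to 5. Blood genes in MO ran between 1194 and 7257 CPM in food-deprived mice and between 0 and 1904 CPM in normal mice. Neuronal markers ran between 448 and 856 CPM in food-deprived mice and between 66.8 and 496 CPM in normal mice. Both ranges reached higher in the food-deprived group. With 1166 CPM of blood genes over all MO cells, the 7257 CPM can only belong to food-deprived replicate 3. The part of blood genes and neuronal markers in the difference was not tested.

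Gabrr2 could be tested in no other single class. Its response in MO minus that in OPC, estimated in a joint fit, was 2.01 ± 1.63 (adjusted p = 1.00, edgeR). OPC held 4 UMIs of it in all, so this difference could not be resolved at this depth. Among all genes 0.0985% were called for MO minus OPC and 5.01% had an unadjusted p under 0.05, against 0.042% and 4.62% for MO minus IMO, and no member was called in either. IMO held no UMI, so edgeR gave no standard error for MO minus IMO, and limma voom gave 2.65 ± 1.02 (adjusted p = 0.929, limma).

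Grik1, the GluK1 kainate receptor subunit, was lower in Glu neurons of food-deprived mice without passing the adjustment. Food-deprived replicates 1 to 3 had 23.7, 27.3 and 13.3 CPM, from 28, 35 and 7 UMIs. Normal replicates 3 to 5 had 81.9, 59.1 and 46.5 CPM, from 75, 35 and 34 UMIs. The groups did not overlap, with the food-deprived mice lower, as for 4.85% of all genes tested in Glu. The log2 fold change was -1.47 ± 0.31 (adjusted p = 1.00, edgeR), and it was -1.74 within batch 1 and -1.09 within batch 2. The exact two-sided permutation p was 0.100, the smallest that 3 mice against 3 allow. Grik1 passed without the filter on low counts (adjusted p = 0.00191, 0.226% called) and in the Gapdh-poor libraries with the block (-1.70, adjusted p = 0.0142, 0.24% called). In the Gapdh-rich libraries alone, with 2 mice a group, 0 of 27 members had an unadjusted p under 0.05 (edgeR), as against 203 of 7391 genes. On plain totals, normal replicate 4 had 87.6 CPM in its Gapdh-poor library and 36.5 CPM in its Gapdh-rich one. Food-deprived replicate 2 had 0 and 31.9 CPM in its Gapdh-poor libraries and 29.4 CPM in its Gapdh-rich one. The adjusted p over all alternatives ran between 0.00191 and 1.00.

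The highest Grik1 level of any cluster was in Glu15, 217 CPM in 1 mouse. With Glu15 left out, a choice made after its values were seen, the log2 fold change in Glu was -1.19 (adjusted p = 1.00, edgeR). In GABA neurons the food-deprived mice had 36.3, 77.5 and 65.8 CPM, and normal replicates 2 to 5 had 58.7, 46.1, 64.3 and 84.0 CPM. Here the groups overlapped, and the log2 fold change was -0.12 ± 0.29. The response in Glu minus that in GABA was -1.32 ± 0.41 (adjusted p = 1.00, edgeR), where 3.6% of all genes had an unadjusted p under 0.05 and 0% were called.

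Grik1 was the member with an unadjusted p under 0.05 in more than 1 class. In MO the food-deprived mice had 20.2, 20.7 and 15.05 CPM, and the normal mice had 13.2, 61.9, 35.5, 28.4 and 50.6 CPM. Normal replicate 1, with 1 UMI, was the lowest of all, so the groups overlapped. The log2 fold change was -0.85 ± 0.28 (adjusted p = 0.913, edgeR). In OPC it was -0.33 ± 0.26 (adjusted p = 1.00, edgeR). In all neurons together, which share their cells with Glu and GABA, the food-deprived mice had 30.7, 50.4 and 43.2 CPM, and normal replicates 2 to 5 had 60.7, 61.3, 61.6 and 66.4 CPM. The groups did not overlap there, as for 1.82% of all genes in that direction, and the log2 fold change was -0.61 ± 0.20 (adjusted p = 1.00, edgeR).

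**Figure D5:**
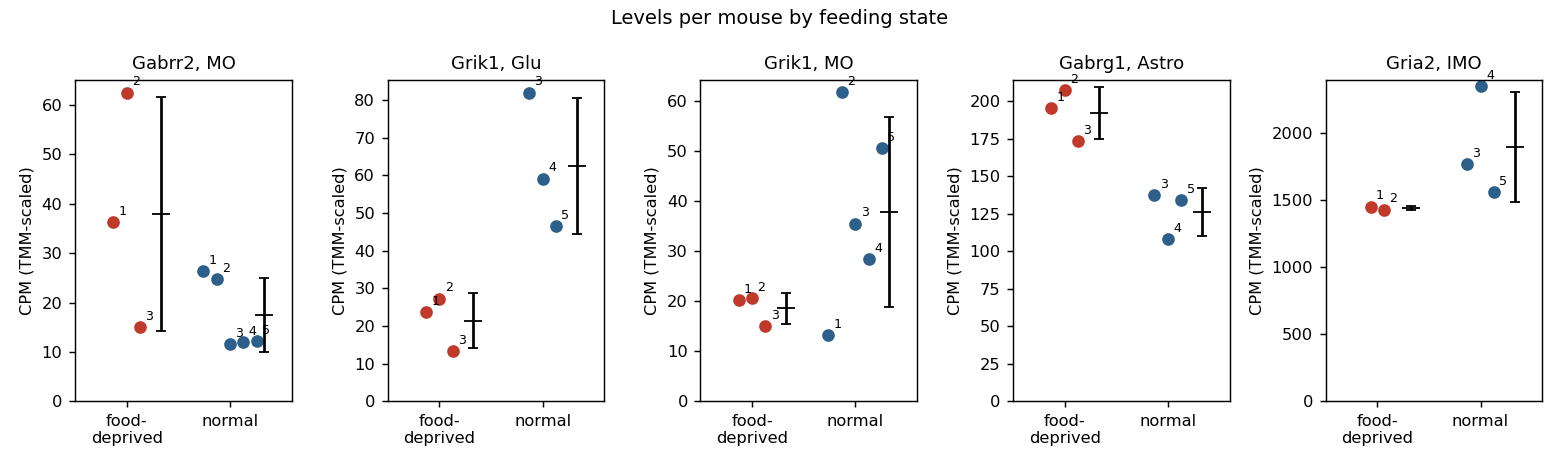
Level per mouse, in CPM scaled to TMM-adjusted totals (vertical axes, linear, from 0), for 5 gene and class pairs, food-deprived left in red and normal right in blue. Numbers are replicates, and the bar beside each group is its mean ± SD. Gabrr2 in MO overlaps through food-deprived replicate 3, and Grik1 in Glu does not overlap.

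Members with the smallest p in other classes are given next. In Astro this was Gabrg1, at 196, 207 and 173 CPM in food-deprived mice and 137, 108 and 134 CPM in normal replicates 3 to 5. The groups did not overlap, as for 3.85% of all genes in that direction, and the log2 fold change was 0.61 ± 0.28 (adjusted p = 0.999, edgeR). Neuronal markers in Astro ran between 968 and 2305 CPM in food-deprived mice and between 152 and 1077 CPM in normal mice, and their part was not tested. In IMO it was Gria2, at 1452 and 1431 CPM in food-deprived replicates 1 and 2 and 1771, 2352 and 1563 CPM in normal replicates 3 to 5 (log2 fold change -0.40 ± 0.25, adjusted p = 0.962, edgeR). These groups did not overlap either, nor did those of Gria3 in IMO, where 10.5% of all genes lay lower in every food-deprived mouse.

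In Micro, 2 of 8 members lay lower in every food-deprived mouse, as did 7.29% of all genes. In Tany it was Gria3, at 25.5, 11.04 and 40.1 CPM in food-deprived mice and 53.4, 36.1 and 77.6 CPM in normal replicates 3 to 5, with overlap between the groups (log2 fold change -1.09 ± 0.46, adjusted p = 0.999, edgeR).

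For GABA neurons it was Grik5, a kainate subunit that needs another to form a channel, at a log2 fold change of -0.33 ± 0.21 (adjusted p = 1.00, edgeR). For OPC it was Grm7, a presynaptic metabotropic receptor, at -0.75 ± 0.45 (adjusted p = 1.00, edgeR). Gria2 had values of 0.42 ± 0.78 in Ependy and 0.16 ± 0.44 in Epith (adjusted p = 0.978 and 1.00, edgeR). In each of these 4 cases the groups overlapped.

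At the level of single clusters, 8 could be tested for members, and no member or other gene was called (0%). At an unadjusted p under 0.05 there were 6 of 26 members in Glu4 (background 5.08% of genes), 2 of 22 in Glu5 (2.78%), 1 of 20 in Glu7 (2.18%) and 1 of 18 in GABA13 (3.7%). Among the 29 members tested in the unnamed remainder, zothers, there was 1 (1.99%). There were none of 14 in GABA8 (2.46%), 10 in GABA15 (2.05%) or 2 in Epith1 (3.62%). The Glu4 fit had 2 mice a group, and the genes named from it were chosen after their values were seen. Grik1 had 45.9 and 26.6 CPM in food-deprived replicates 1 and 2, and 115 and 97.8 CPM in normal replicates 3 and 4 (log2 fold change -1.63 ± 0.52, adjusted p = 0.872, edgeR). Grin2b, Grm5 and Grin2c had log2 fold changes of -1.13, -1.12 and -1.56 in the same fit, and Gabra3 one of 0.99. Fewer cells of a type inside Glu4 and less RNA per cell cannot be told apart in these sums.

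The other genes of both transmitter systems, a list of 56 that make, load, take up and anchor transmitters and receptors, gave no call in any class. Of these, 46 could be tested in all neurons, 43 in GABA neurons, 37 in Glu neurons, 36 in OPC, 23 in MO and 22 in Astro, with 0 called higher and 0 called lower in each, also with batch as a block. At an unadjusted p under 0.05 there were 2 of 37 in Glu (3.58% of all genes), among them Glul, glutamine synthetase, and 1 of 46 in all neurons (2.12% of all genes). There were 3 of 11 in IMO (4.64% of all genes) and 3 of 19 in Tany (3.07%), in Tany among them Glul and the GABA transporter Slc6a11. Ependy had 2 of 11 (4.44% of all genes) and Epith 1 of 19 (3.52%). None of the list reached it in GABA, MO, OPC, Astro, Micro or all cells. The median log2 fold change of the list was -0.01 in Glu and 0.06 in MO, where that of all genes was 0.00 in both.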

How the data were processed

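The authors deposited UMI counts per gene and cell for 17 Drop-seq libraries, a merged count table, and a cluster label for each cell of that table. Per the submitters' processing notes the genome build was mm9, and the aligner and counter are not stated in any source used here. The counts are used as deposited. Cells of the merged table were joined to libraries by barcode, and counts were added up over the libraries of each mouse.

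The receptor genes and the lists were chosen with earlier results of these data known. Levels are CPM per mouse with at least 5 cells. For feeding state, counts were summed per mouse and class (at least 20 cells) or cluster (at least 10 cells), with at least 2 mice a group, and tested with edgeR 4.0.16 (TMM, filterByExpr, quasi-likelihood test, Benjamini-Hochberg adjustment over all genes, threshold 0.05). DESeq2 1.42.0 and limma 3.58.1 gave alternatives, and scipy 1.17.1 the exact permutation tests. The steps were tested on simulated data. The mouse was the replicate in all tests. In edgeR, DESeq2 and limma the spread between mice was estimated for each gene with help from the other genes of the fit. For genes with few UMIs these p-values can therefore differ from the permutation p, which uses only the values of the mice. The SE of an edgeR fit was derived from its log2 fold change and test statistic. Shares of cells were recomputed after thinning each cell to 1000 UMIs, and doublets were not called. Intervals for counts of 0 use 3 counts and cover counting error only.

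Batches come from the labels, and the replicate block pairs mice of the same labelled batch. Only batches 1 and 2 hold both groups. Normal mice with too few cells of a class are left out of its fit.

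Named by feeding state were members called in any of the edgeR, batch-block or DESeq2 fits, Gabrr2 in MO, the member with the smallest p of each class, and members at an unadjusted p under 0.05 in at least 2 classes. Named for levels were the 3 highest members of each class, and members whose highest cluster had at least 20 CPM and 2 times the second. Alternatives were another tool, no filter, the batch block, each mouse left out, at least 50 cells, Gapdh-poor or Gapdh-rich libraries alone, and the cells with ambiguous barcodes added. Promoter sequences are from RefSeq, GRCm38.p6, and no coordinates of the files' build are used. A few genes that these rules name are not reported here.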

Additional observations from a re-analysis of the deposited data

Results flagged for a closer look

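Grik1 in all neurons of normal mice was picked out because normal replicate 5, at 66.4 CPM, lay far from the other 3, which were at 60.7, 61.3 and 61.6 CPM. Grik1 in all cells of normal mice was picked out because normal replicate 1, at 3.50 CPM from 1 UMI, lay far below the other 4, at 36.2 to 46.0 CPM. In all, 9 groups were examined in this way, and chance picks out about 1 in 20 groups. Gria2 stood at 985 CPM in the 3829 barcodes that carry no cluster label, not even zothers, and enter no comparison here. Those barcodes held 2005443 UMIs.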

How the results depend on the processing

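No member was called with the main settings, and 1 was called in Glu (Grik1) without the filter on low counts and in the Gapdh-poor libraries with the replicate block. In MO 1 was called (Gabrr2) without the filter, with the replicate block, and in the Gapdh-poor libraries with the block, and in all cells 1 (Gabrr2) with the replicate block, each by edgeR; DESeq2 with the block called none. With the replicate block the log2 fold change was 1.97 for Gabrr2 in MO (adjusted p = 0.0129, edgeR) and -1.46 for Grik1 in Glu (0.266), and beside Gabrr2 in MO and in all cells the block changed no call of a member. Leaving out each mouse gave 1.35 to 2.02 for Gabrr2 in MO and -1.68 to -1.21 for Grik1 in Glu. Without food-deprived replicate 2, Gabrr2 in all cells was 0.76, and the highest value was 2.04. Small differences changed sign: leaving out 1 mouse at a time gave -0.071 to 0.93 for Gria2 in Ependy, which fell below the filter without normal replicate 5, -0.51 to 0.69 for Gria2 in Epith and -0.38 to 0.18 for Grik1 in GABA. In the Gapdh-poor libraries with the block, Gria2 in Epith was -0.059 and Grik1 in GABA 0.023, and in batches 1 and 2 alone, chosen after seeing the data, Grik1 in GABA was 0.041. The cause was not tested. Gabrr2 in MO could not be fitted in the Gapdh-rich libraries, where it fell below the filter. In Glu, 0 of 27 members, Grik1 included, had an unadjusted p under 0.05 in those libraries (edgeR), as against 203 of 7391 genes. Of the levels, Gria2 in Epith (90.8 CPM) and Gabra4 in Glu4 (163 CPM) moved in the Gapdh-rich libraries, Gabra4 in Glu4 (330 CPM) in the Gapdh-poor ones, and Gria2 (271 CPM) and Gria3 (30.2 CPM) in POPC with at least 20 cells. Normal replicates 1 and 2, with 129 and 158 cells, limit most classes.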
